A study of Mus musculus with 9 samples.

Results

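The genes described here are 42 genes of DNA replication and mitosis, 23 of replication and 19 of mitosis, taken by symbol from a fixed list. All 42 were among the 24391 genes of the deposited tables. They were followed in mouse CD8+ T cells cultured for 72 h with interleukin 2 at 100 U/mL, in RNA sequencing libraries of 5 samples that were not treated (NT 1 to NT 5) and 4 that were activated with an LSD1 inhibitor present (LSD1i 1 to LSD1i 4). LSD1 is a histone demethylase of corepressor complexes, and both groups were activated T cells, so the untreated cells are a cycling control and not a resting one. The inhibitor and its dose, the strain and age of the mice and the source of each culture are not given in the labels. A p-value here speaks only of the spread from library to library, part of which may be technical.

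A dividing cell loads the MCM helicase onto replication origins in G1 phase, with the help of Cdc6 and Cdt1, and fires these origins in S phase. E2F factors switch on the replication genes late in G1. The genes for entry into and passage through mitosis follow in G2 phase, driven by Foxm1 and by the MuvB complex with B-Myb. CD8+ T cells divide fast for several days after activation, so both programmes are strongly expressed in culture and their messenger RNA is a common readout of proliferation. In bulk RNA, fewer cycling cells and less of a message per cycling cell cannot be told apart.

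The CD8 T cell markers listed were Cd8a, Cd8b1, Cd3d, Cd3e, Cd3g and Cd247. These 6 summed to 1348 to 1575 CPM (read counts scaled to a common library total) in NT and 1685 to 1791 in LSD1i. Marker sums used plain library totals, whereas all other CPM values carry TMM factors. Markers of CD4 T cells, B cells, myeloid cells and NK cells summed to at most 0.571 CPM per list in any library, and Ncr1 was at 0 reads in all 9. Raw totals ran from 15163983 to 29245278 reads, and each of the 42 genes had at least 285 raw reads in every library. Of the 9 libraries, 4 carry opposite group names in the raw and the batch-corrected table, those numbered 1 and 2 in each group, and 5 are named alike. The labels do not settle which names are right, so LSD1i directions are given under the batch-corrected names unless the raw names are mentioned. The deposited correction treats replicates 1 and 2 as one set of libraries and replicates 3 to 5 as another, as the ratio of corrected to raw counts shows. The crossed names lie within the first set, so each set keeps its libraries under either naming. Of all tested genes, Trpm6 had the highest log2 fold change with LSD1i in replicates 3 to 5, at 7.66. In replicates 1 and 2 it was 7.91 under the batch-corrected names and −7.91 under the raw names. A test for LSD1i effects differing between sets called 0 of 11916 genes under the batch-corrected names and 227 under the raw names. LSD1i effects thus differed less between the sets under the batch-corrected names.

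Many but not all promoters of these genes carry the elements for which the 2 programmes are known. Of the promoters 8 are shown, picked after their matches were seen, because they display these elements clearly. RefSeq promoter sequences (GRCm38.p6, 250 bases before to 50 after the gene start) were at hand for 32 of the 42 genes, 18 of replication and 14 of mitosis. Each motif was searched on both strands. The E2F core was searched as TTCCCGC, then with the second spelling TTCGCGC, with the spelling written TTGCCGC, and with the last spelling TTGGCGC. The cell cycle genes homology region (CHR), bound by MuvB, was searched with the spelling TTTGAA and with the other spelling TTCGAA. The CCAAT box, bound by NF-Y, was searched as written. Motifs may overlap one another. The first set below gives the 170 bases that precede the start of 4 replication genes, 5′ to 3′ on the gene's strand, with motif matches in capitals. They lie at chr8:75109339-75109508 (plus strand), chr1:128359706-128359875 (minus strand), chr11:98907981-98908150 (plus strand) and chr7:102441525-102441694 (plus strand).
Mcm5: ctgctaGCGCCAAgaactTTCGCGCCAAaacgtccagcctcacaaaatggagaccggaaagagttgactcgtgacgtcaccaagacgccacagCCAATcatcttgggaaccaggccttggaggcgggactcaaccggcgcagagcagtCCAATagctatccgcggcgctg
Mcm6: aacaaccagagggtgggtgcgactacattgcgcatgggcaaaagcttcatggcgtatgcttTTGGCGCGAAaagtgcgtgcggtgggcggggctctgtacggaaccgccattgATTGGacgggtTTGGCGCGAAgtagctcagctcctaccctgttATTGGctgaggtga
Cdc6: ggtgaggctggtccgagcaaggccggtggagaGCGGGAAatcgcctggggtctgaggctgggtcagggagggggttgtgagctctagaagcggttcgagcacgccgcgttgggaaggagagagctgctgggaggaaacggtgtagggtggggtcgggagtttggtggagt
Rrm1: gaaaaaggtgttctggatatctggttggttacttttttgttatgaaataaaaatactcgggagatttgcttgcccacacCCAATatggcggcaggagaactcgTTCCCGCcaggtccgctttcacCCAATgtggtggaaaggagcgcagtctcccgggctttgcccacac

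The same stretch is given for 4 mitosis genes, at chr10:69352913-69353082 (minus strand), chr4:118437344-118437513 (minus strand), chr11:99024190-99024359 (minus strand) and chr19:37376212-37376381 (plus strand).
Cdk1: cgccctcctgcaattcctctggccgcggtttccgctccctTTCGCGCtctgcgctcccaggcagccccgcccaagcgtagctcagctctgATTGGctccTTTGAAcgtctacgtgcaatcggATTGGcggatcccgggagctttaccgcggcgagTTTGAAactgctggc
Cdc20: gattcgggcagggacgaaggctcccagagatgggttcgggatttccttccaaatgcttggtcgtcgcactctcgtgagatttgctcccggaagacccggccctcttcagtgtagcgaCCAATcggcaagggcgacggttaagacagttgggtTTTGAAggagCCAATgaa
Top2a: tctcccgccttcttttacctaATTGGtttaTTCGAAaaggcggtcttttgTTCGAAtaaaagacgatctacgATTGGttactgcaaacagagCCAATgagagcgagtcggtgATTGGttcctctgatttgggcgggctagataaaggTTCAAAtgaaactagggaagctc
Kif11: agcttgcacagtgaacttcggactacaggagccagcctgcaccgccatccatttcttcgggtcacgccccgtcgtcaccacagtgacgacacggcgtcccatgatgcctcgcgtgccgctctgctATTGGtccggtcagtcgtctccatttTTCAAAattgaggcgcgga

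Mcm5 and Mcm6 show 3 and 4 matches to the E2F core in this stretch and 0 to the CHR, whereas Cdc20, Top2a and Kif11 show 1, 3 and 1 matches to the CHR and 0 to the E2F core. Cdk1 holds both kinds. Over the full windows, an E2F core was found in 11 of 18 replication promoters (61.1%) and 3 of 14 mitosis promoters (21.4%), against 17.8% of the 9076 promoters of tested genes and 9.69% of all 27025 promoters in the table. The share in mitosis promoters was thus near that of tested genes. A CHR was found in 3 of 18 replication promoters (16.7%) and 11 of 14 mitosis promoters (78.6%), against 13.6% of tested genes and 19.4% of all. CCAAT boxes at 2 or more places were found in 6 of 18 (33.3%) and 9 of 14 (64.3%), against 15.4% of tested genes and 12.2% of all. These matches describe the letters of the reference and are not measured binding.

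With LSD1 inhibition, 0 of the 42 genes rose and 0 fell in the batch-corrected table. The test was edgeR's quasi-likelihood test with Benjamini-Hochberg adjustment at 0.05, which called 3.31% of 11981 tested genes. At an unadjusted p under 0.05 the count was also 0 of 42, beside 1744 of the 11981 tested genes. DESeq2 called 0 of the 42 where it called 4.69% of genes. Adjusted p-values of the 42 genes ran from 0.533 for Bub1 to 0.991 for Rrm1. The CPM values of NT and LSD1i overlapped for each of the 42, while 7.86% of tested genes had groups that did not overlap. Log2 fold changes of LSD1i over NT lay between −0.33 (Ccne1) and 0.17 (Pcna), with standard errors (SE) of 0.07 to 0.25. A p that misses the threshold does not show that expression was equal, so 95% intervals were set beside it. The interval lay within a 1.5-fold change either way for 38 of the 42 genes, beside 8429 of the 11981 tested genes. The exceptions among the 42 were Rfc3 (0.638-fold to 1.08-fold), Rrm2 (0.649-fold to 1.36-fold), Ccne1 (0.545-fold to 1.17-fold) and Ccne2 (0.720-fold to 1.52-fold), all of the replication group.

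**Figure D1:**
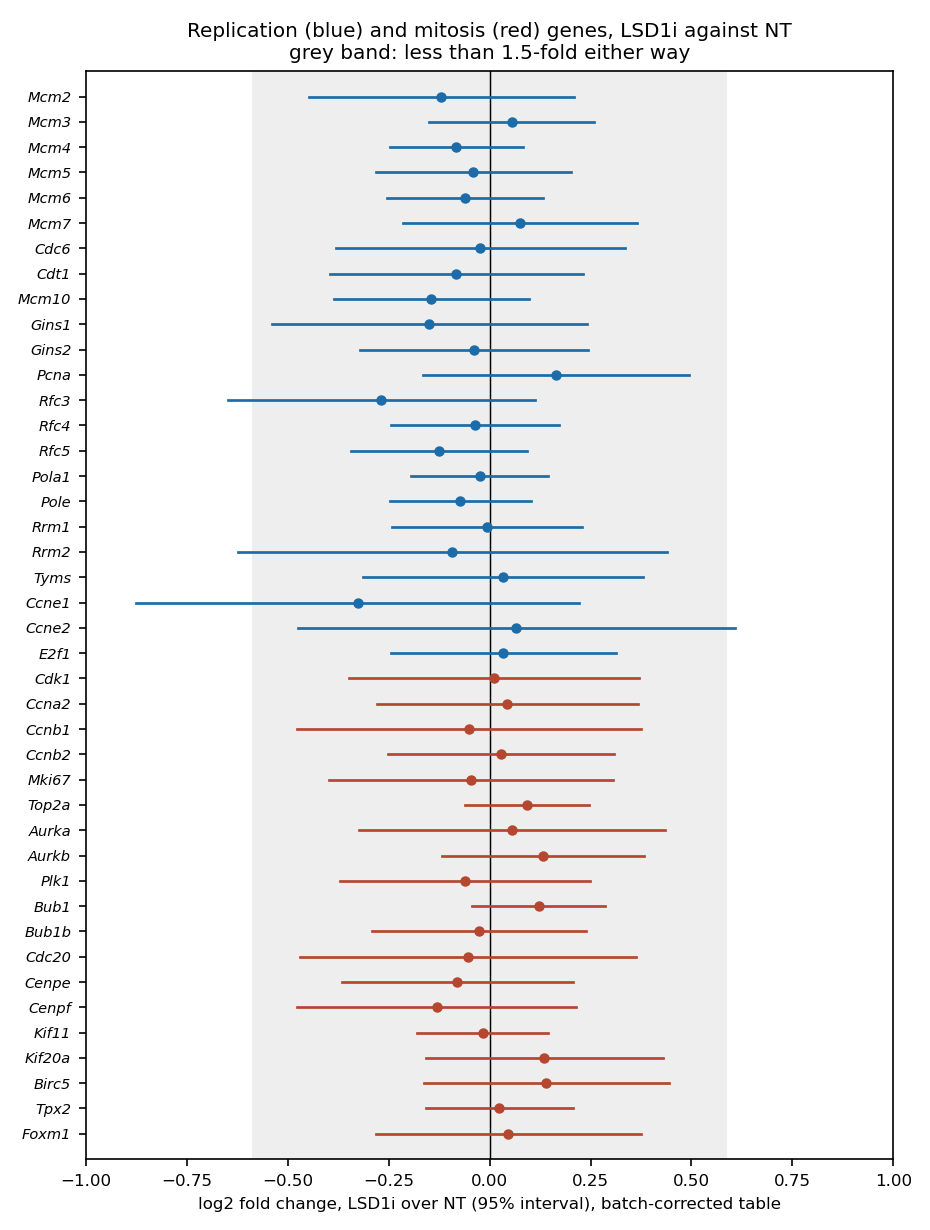
Log2 fold change of LSD1i over NT in the batch-corrected table for the 42 genes, with 95% intervals from edgeR (5 NT and 4 LSD1i libraries); blue marks replication, red mitosis, and the grey band less than 1.5-fold. All 42 intervals include 0, and 38 lie inside the band.

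Among the replication genes, the 6 subunits of the MCM helicase, which unwinds the DNA ahead of the fork, had log2 fold changes of −0.12 (Mcm2) to 0.08 (Mcm7). Mcm2 was at 176, 241, 219.8, 198 and 277 CPM in the NT libraries and at 197, 239, 157 and 225 in the LSD1i libraries, in order of number here and below. Its highest library was NT 5 and its lowest LSD1i 3, and the groups overlapped (222 ± 38.7 against 205 ± 36.3, SD, n = 5 and 4). Mcm5 was at 337, 412, 398, 358 and 440.3 CPM in NT and at 373, 413, 312 and 415 in LSD1i, with the same libraries at its ends. The log2 fold change of Mcm5 was −0.04 ± 0.11 (SE). Cdc6, which loads the helicase together with Cdt1, was at 49.2, 69.5, 62.1, 54.4 and 84.7 CPM in NT and at 60.2, 75.5, 49.9 and 66.1 in LSD1i. Its LSD1i values all lay inside the NT range, and the log2 fold change was −0.02 ± 0.16. Mcm10, a factor for origin firing, was at 82.9, 99.3, 94.8, 89.997 and 106 CPM in NT and at 82.2, 96.3, 69.8 and 93.98 in LSD1i (log2 fold change −0.14 ± 0.11). Only LSD1i 1 and LSD1i 3 lay below the NT range of Mcm10. The GINS subunits Gins1 and Gins2, partners of the helicase, had log2 fold changes of −0.15 ± 0.18 and −0.04 ± 0.13.

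Pcna, the sliding clamp that holds polymerases on DNA, was at 257, 364, 319, 277 and 431 CPM in NT and at 368, 419, 307 and 384 in LSD1i. NT 1 and NT 5 spanned all LSD1i values, and the log2 fold change was 0.17 ± 0.15, the highest of the 42. Rfc3, a subunit of the clamp loader, was at 60.2, 80.4, 70.1, 85.9 and 101 CPM in NT and at 62.9, 83.4, 48.3 and 69.7 in LSD1i. Only LSD1i 3 fell outside the NT range of Rfc3, and its log2 fold change of −0.27 ± 0.17 had the smallest p of the replication group (adjusted p = 0.558). Rfc5, of the same complex, was at 87.5, 96.6, 105, 92.2 and 100.0 CPM in NT and at 84.8, 99.7, 73.4 and 94.9 in LSD1i (−0.13 ± 0.10). The catalytic polymerase subunits Pola1, which starts new strands, and Pole, which extends the leading strand, had log2 fold changes of −0.02 ± 0.08 and −0.07 ± 0.08. These were among the smallest errors of the replication group.

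Rrm2, the regulated subunit of ribonucleotide reductase, which makes deoxynucleotides, was at 85.96, 168, 119, 97.9 and 209 CPM in NT and at 128, 144, 96.3 and 141 in LSD1i. NT alone spanned the whole range of Rrm2 (136 ± 51.4, n = 5, against 127 ± 21.9, n = 4). Log2 fold changes were −0.01 ± 0.11 for its partner Rrm1 and 0.03 ± 0.16 for Tyms, the thymidylate synthase. Ccne1, the cyclin E1 that drives entry into S phase, was at 36.9, 66.2, 51.4, 45.9 and 93.1 CPM in NT and at 44.2, 61.2, 34.4 and 47.4 in LSD1i. NT 5 stood highest and LSD1i 3 lowest for Ccne1, 2.71-fold apart, the widest ratio among the 42 genes. Ccne2, cyclin E2, was at 20.7, 38.5, 32.1, 25.4 and 53.9 CPM in NT and at 37.9, 43.3, 26.9 and 34.6 in LSD1i. Log2 fold changes of Ccne1 and Ccne2 were −0.33 ± 0.25 and 0.07 ± 0.25. E2f1, a transcription factor of the replication programme, was at 26.00, 20.96, 22.2, 17.02 and 22.9 CPM in NT and at 23.4, 18.7, 23.7 and 23.7 in LSD1i. All LSD1i values of E2f1 lay inside the NT range (0.03 ± 0.13).

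**Figure D2:**
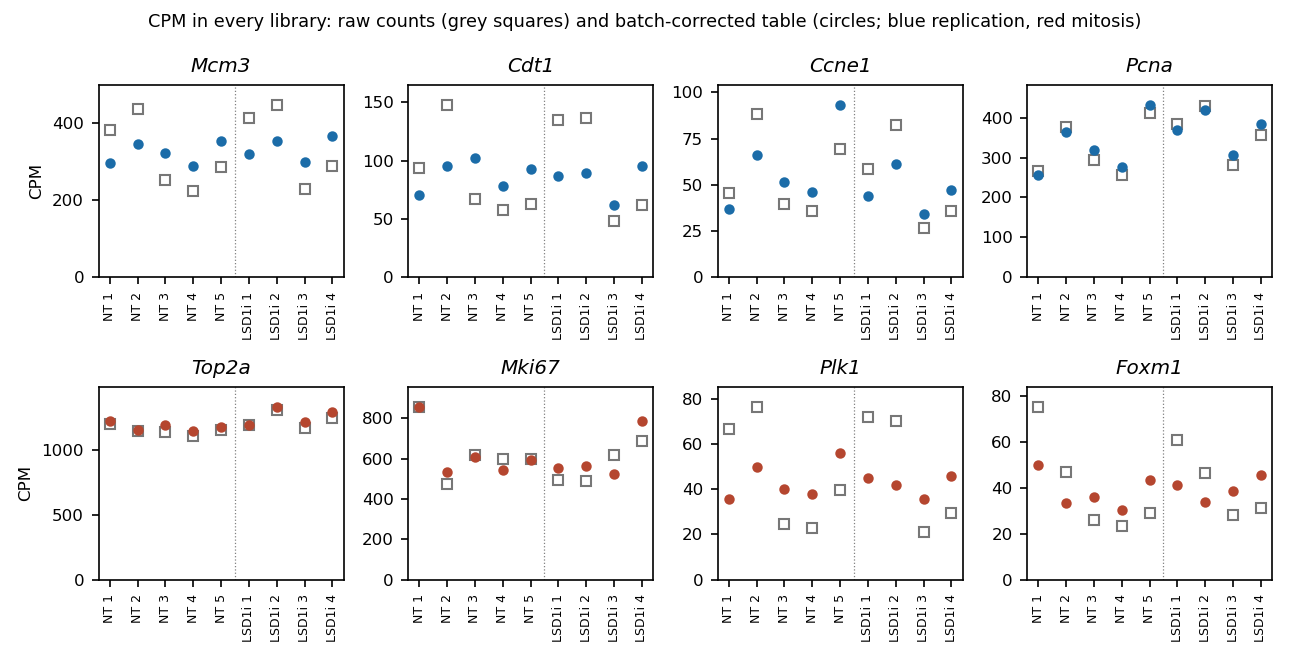
CPM of 4 replication genes (blue) and 4 mitosis genes (red) in each of the 9 libraries, in the batch-corrected table (circles) and in raw counts carrying the names of that table (grey squares), each axis starting at 0. In the circles NT and LSD1i overlap for each gene, and in the squares Mcm3, Cdt1, Plk1 and Foxm1 are higher in replicates 1 and 2 than in replicates 3 to 5, while Top2a is not.

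Among the mitosis genes, Cdk1, the kinase that starts mitosis, was at 109.6, 162, 138, 125 and 191 CPM in NT and at 146, 167, 113 and 159 in LSD1i. NT 1 and NT 5 spanned the LSD1i values, and the log2 fold change was 0.01 ± 0.16. Its activating cyclin Ccnb1 was at 71.7, 113, 94.3, 84.6 and 147 CPM in NT and at 96.9, 119, 76.9 and 101 in LSD1i, again inside the NT range (−0.05 ± 0.19). Ccna2, the cyclin of S and G2 phase, and Ccnb2, a second B-type cyclin, had log2 fold changes of 0.04 ± 0.15 and 0.03 ± 0.13. Mki67, which encodes the Ki-67 protein that coats mitotic chromosomes and marks cycling cells, was at 854, 533, 609.7, 545 and 595 CPM in NT and at 555, 561, 526 and 787 in LSD1i. NT 1 and LSD1i 4 stood above the other 7 libraries, and the log2 fold change was −0.05 ± 0.16. Top2a, the topoisomerase that untangles sister chromatids, was at 1228, 1158, 1194, 1151 and 1182 CPM in NT and at 1195, 1330.0, 1221 and 1296 in LSD1i. It varied least of the 42 genes within groups, and its log2 fold change of 0.09 ± 0.07 had a 95% interval of 0.958-fold to 1.19-fold.

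Aurkb, the kinase of the chromosomal passenger complex, was at 102, 132, 111, 103 and 146 CPM in NT and at 134, 132, 119.5 and 135 in LSD1i (0.13 ± 0.11). Its LSD1i values lay inside the NT range. Plk1, a kinase of mitotic entry and spindle formation, was at 35.8, 50.1, 40.3, 37.7 and 55.9 CPM in NT and at 44.98, 41.9, 35.8 and 45.9 in LSD1i (−0.06 ± 0.14). Aurka, the spindle pole kinase, had a log2 fold change of 0.06 ± 0.17. Bub1, a kinase of the spindle checkpoint, was at 125, 119, 115, 109 and 115 CPM in NT and at 126, 118, 138 and 125 in LSD1i. Bub1 had the smallest p of the 42 genes with a log2 fold change of 0.12 ± 0.07 (adjusted p = 0.533), its LSD1i 2 lying below NT 1 and NT 2. Bub1b, which encodes the checkpoint protein BubR1, had a log2 fold change of −0.03 ± 0.12.

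Cdc20, which activates the anaphase-promoting complex, was at 93.1, 150.1, 127, 104 and 177 CPM in NT and at 125, 144, 93.6 and 139 in LSD1i (−0.05 ± 0.19). Birc5, the passenger protein survivin, was at 64.5, 89.1, 77.1, 66.96 and 98.3 CPM in NT and at 85.00, 96.2, 72.5 and 95.5 in LSD1i (0.14 ± 0.14). For both genes NT 1 was the lowest and NT 5 the highest library. Foxm1, the transcription factor of the G2 programme, was at 50.1, 33.4, 35.9, 30.2 and 43.5 CPM in NT and at 41.3, 34.05, 38.6 and 45.8 in LSD1i (0.05 ± 0.15). The kinetochore proteins Cenpe and Cenpf and the motors Kif11 and Kif20a had log2 fold changes of −0.13 (Cenpf) to 0.14 (Kif20a), and the spindle assembly factor Tpx2 of 0.02 ± 0.08.

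Levels of different genes are compared per kilobase of exon (union of GENCODE M21 exons), averaged over the 9 libraries of the batch-corrected table. On that scale Pcna stood highest at 145 CPM per kilobase, followed by Top2a at 135 and Mcm6 at 128. Foxm1 and E2f1, the transcription factors, stood lowest at 6.81 and 6.99.

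As groups, the replication and mitosis genes were set beside each other next. The median log2 fold change was −0.04 over the 23 replication genes and 0.02 over the 19 mitosis genes, beside −0.02 over all tested genes. Of the replication genes 6 were above 0 and 17 below, and of the mitosis genes 11 above and 8 below. Of all tested genes 5460 were above 0 and 6521 below. The counts of the replication and mitosis genes rest on single libraries: without LSD1i 3, 15 replication genes were above 0 and 8 below, and without NT 5, 13 above and 10 below. For mitosis genes they became 17 above and 2 below without LSD1i 3, 15 and 4 without NT 5, and 5 and 14 without NT 4. The mean log2 CPM of the replication genes was 6.83 ± 0.20 in NT (SD, n = 5) and 6.78 ± 0.20 in LSD1i (n = 4), and that of the mitosis genes 7.07 ± 0.17 and 7.10 ± 0.14. Taken within each library, replication minus mitosis was −0.39, −0.21, −0.20, −0.19 and −0.22 in NT and −0.33, −0.20, −0.40 and −0.35 in LSD1i. LSD1i 1, LSD1i 3 and LSD1i 4 lay below NT 2 to NT 5, but NT 1 lay with them and LSD1i 2 with the others, so the groups overlapped. The group means of this difference were −0.24 ± 0.08 and −0.32 ± 0.08, which are −0.08 apart on the log2 scale. In raw counts with the batch term it was −0.04 under the batch-corrected names and −0.11 under the raw names. Without that term it was −0.05 and −0.12. In replicates 3 to 5 alone it was −0.14, and in replicates 1 and 2 alone 0.08 under the batch-corrected names and −0.08 under the raw names.

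Single libraries stood apart for many of the 42 genes at once. NT 5 was the highest of the 9 libraries for 28 of the 42 genes, 17 of replication and 11 of mitosis. LSD1i 3 was the lowest for 20, of which 16 were of replication, and NT 1 for 13, of which 9 were of mitosis. In NT 5, 37 of the 42 genes stood above their own median over the libraries, and in LSD1i 3, 38 stood below it. Such counts were not made over all tested genes. The median log2 CPM of all tested genes was 4.86 in NT 5 and 4.90 in LSD1i 3. The median SD within groups was 0.22 on the log2 scale over the 42 genes, from 0.05 for Top2a to 0.45 for Ccne1. It was 0.16 over the 6879 tested genes with a mean level at or above that of the lowest member. Without NT 5 the median log2 fold changes became 0.01 (replication) and 0.10 (mitosis), and without LSD1i 3 they became 0.03 and 0.07, with 0 calls among the 42 in either case.

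**Figure D3:**
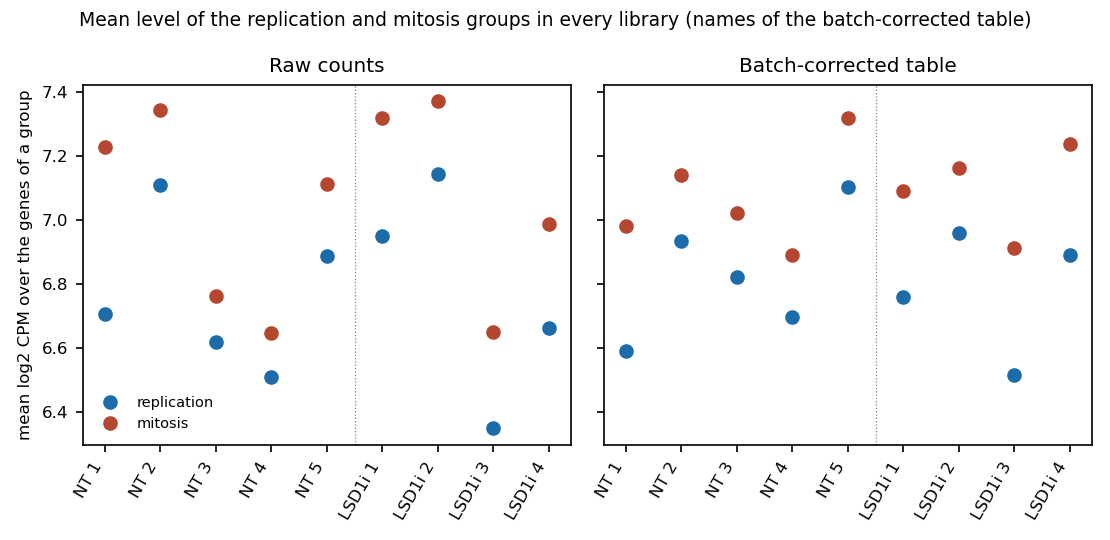
Mean log2 CPM over the 23 replication genes (blue) and the 19 mitosis genes (red) in each library, from raw counts carrying the names of the batch-corrected table (left) and from that table (right); each point is 1 library. After correction the points of NT (left of the dotted line) and LSD1i overlap, with NT 5 highest and LSD1i 3 lowest for replication.

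Raw counts also gave 0 calls among the 42 genes. Under the batch-corrected names, with a term for the replicate set, 0 of the 42 genes were called, beside 1.85% of all tested genes. The 95% interval then lay within 1.5-fold for 39 of the 42, beside 8009 of 11916 tested genes. With the replicate number as a block on the same counts 0 of 42 were called, beside 2.95% of all tested genes. Under the names of the raw table and with the batch term, 0 of 42 were called, beside 0% of all tested genes. An unadjusted p under 0.05 was found for 1 of 42, beside 455 of 11916 tested genes. Intervals lay within 1.5-fold for 34 of 42, beside 7854 of 11916. Without the batch term there were again 0 calls among the 42, and the intervals were wider under either naming. Under the raw names 20 of 42 lay within 1.5-fold, beside 5714 of 11916 tested genes. Under the batch-corrected names 25 of 42 did, beside 5878 of 11916. The authors' deposited table listed all 42 genes and marked 0 of them, where it marked 0.688% of its 20052 genes. Its log2 fold changes for the 42 genes ran from −0.31 (Ccne1) to 0.18 (Pcna), and its adjusted p-values from 0.608 to 0.994.

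LSD1i was also compared with NT within each set of replicates. In replicates 1 and 2, 32 of the 42 genes were above 0, including 20 of the 23 replication genes, and in replicates 3 to 5, 13 of the 42 were above 0, including 4 of the 23. Of all tested genes, 5808 of 11837 were above 0 in replicates 1 and 2 and 5966 of 12078 in replicates 3 to 5. The medians of the replication genes were 0.10 and −0.12 on the log2 scale, and those of the mitosis genes 0.07 and −0.01. The values of replicates 1 and 2 come only from the 4 libraries with crossed names, and under the raw names each of them turns sign. Of all tested genes, the 8 called in replicates 1 and 2 were higher under the batch-corrected names and lower under the raw names. In replicates 3 to 5, 97 were called higher and 20 lower. Under the raw names, 10 of the 42 genes were above 0 in replicates 1 and 2, including 3 of the 23 replication genes. The medians there were −0.10 (replication) and −0.07 (mitosis), so the replication medians of both sets lay below 0. In replicates 3 to 5, whose names are not in doubt, the log2 fold change was −0.61 for Ccne1, −0.46 for Rfc3 and 0.12 for Mki67, all without a call. In replicates 1 and 2 it was 0.06, 0.21 and −0.45 under the batch-corrected names and −0.06, −0.21 and 0.45 under the raw names, so whether these genes differ in sign between the sets depends on the naming. Calls numbered 0 of 42 in each set, beside 0.0676% and 0.969% of all tested genes. A test of the difference between the sets, an interaction term in edgeR added after these values were seen, called 0 of 42 genes and 0% of all tested genes. Its median log2 difference was −0.28 (replication) and −0.13 (mitosis), and −0.03 and 0.02 under the raw names. SE ran from 0.17 to 0.56 over the 42 genes under the batch-corrected names. The interval lay within 1.5-fold for 7 of 42, beside 2019 of 11916 tested genes, so larger differences are not excluded for the others. At an unadjusted p under 0.05 the test also found 0 of the 42, beside 581 of 11916 tested genes. The smallest p of the 42 was that of Rfc3 (0.0528). Under the raw names the same test called 0 of 42 genes, beside 1.91% of all tested genes. An unadjusted p under 0.05 was found for 0 of the 42, beside 1344 of 11916.

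Members passed the test between the sets of replicates, which the labels do not describe. In raw counts with the group as a term, 22 of the 42 genes (52.4%) were lower in replicates 3 to 5 than in replicates 1 and 2, beside 20.4% of all tested genes. With all 9 libraries 0 of 42 were higher, beside 18.4% of all. The lower genes were 13 of 23 in replication and 9 of 19 in mitosis, with median log2 fold changes over each whole group of −0.35 and −0.49, beside −0.01 over all tested genes. For 15 of the 42 genes, the 4 libraries of the first set all lay above the 5 of the second, beside 15.6% of all tested genes. These 15 were all among the 22. Without NT 1, 26 of the 42 genes were lower and 1 was higher, Mki67 with a log2 fold change of 0.39. Of the 11804 genes tested in that fit, 2767 were lower and 2615 higher. The comparison of the sets was chosen after the values were seen.

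Plk1 had the largest difference. It was at 66.9, 76.3, 72.2 and 70.2 CPM of raw counts in NT 1, NT 2, LSD1i 1 and LSD1i 2, and at 24.8, 23.01, 39.6, 21.2 and 29.6 in NT 3, NT 4, NT 5, LSD1i 3 and LSD1i 4. The sets did not overlap, and the log2 fold change was −1.38 ± 0.17 (adjusted p = 0.000235). Cdt1 was at 94.1, 148, 135 and 137 CPM in the first set and at 67.4, 57.5, 63.02, 48.01 and 61.8 in the second (−1.11 ± 0.15, adjusted p = 0.000358). Foxm1 was at 75.1, 47.1, 60.97 and 46.7 and at 26.03, 23.5, 29.2, 28.1 and 31.2 CPM (−1.06 ± 0.16). For both genes each library of the first set stood above each of the second. All 6 MCM helicase subunits were lower in the second set, from −0.27 (Mcm6) to −0.81 (Mcm7), as were both licensing factors and all 3 mitotic kinases Aurka, Aurkb and Plk1.

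Other members did not pass between the sets. Of the clamp and clamp loader genes 0 of 4 were called, with log2 fold changes of −0.16 (Pcna) to 0.23 (Rfc4). Top2a was at 1201, 1150.2, 1194 and 1313 CPM in the first set and at 1143, 1110.1, 1153, 1169 and 1245 in the second, overlapping and with a log2 fold change of −0.05 ± 0.08. Mki67 was at 854, 472, 495 and 491 and at 619, 599.7, 597, 621 and 688 CPM (0.11 ± 0.17), so that 3 of the 4 first-set libraries lay below all of the second. Ccne2 (0.35 ± 0.27), Bub1 (0.14 ± 0.08) and Cenpf (0.19 ± 0.17) were likewise not called. Within the polymerases Pole was lower (−0.66 ± 0.09) and Pola1 was not called (0.15 ± 0.09).

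**Figure D4:**
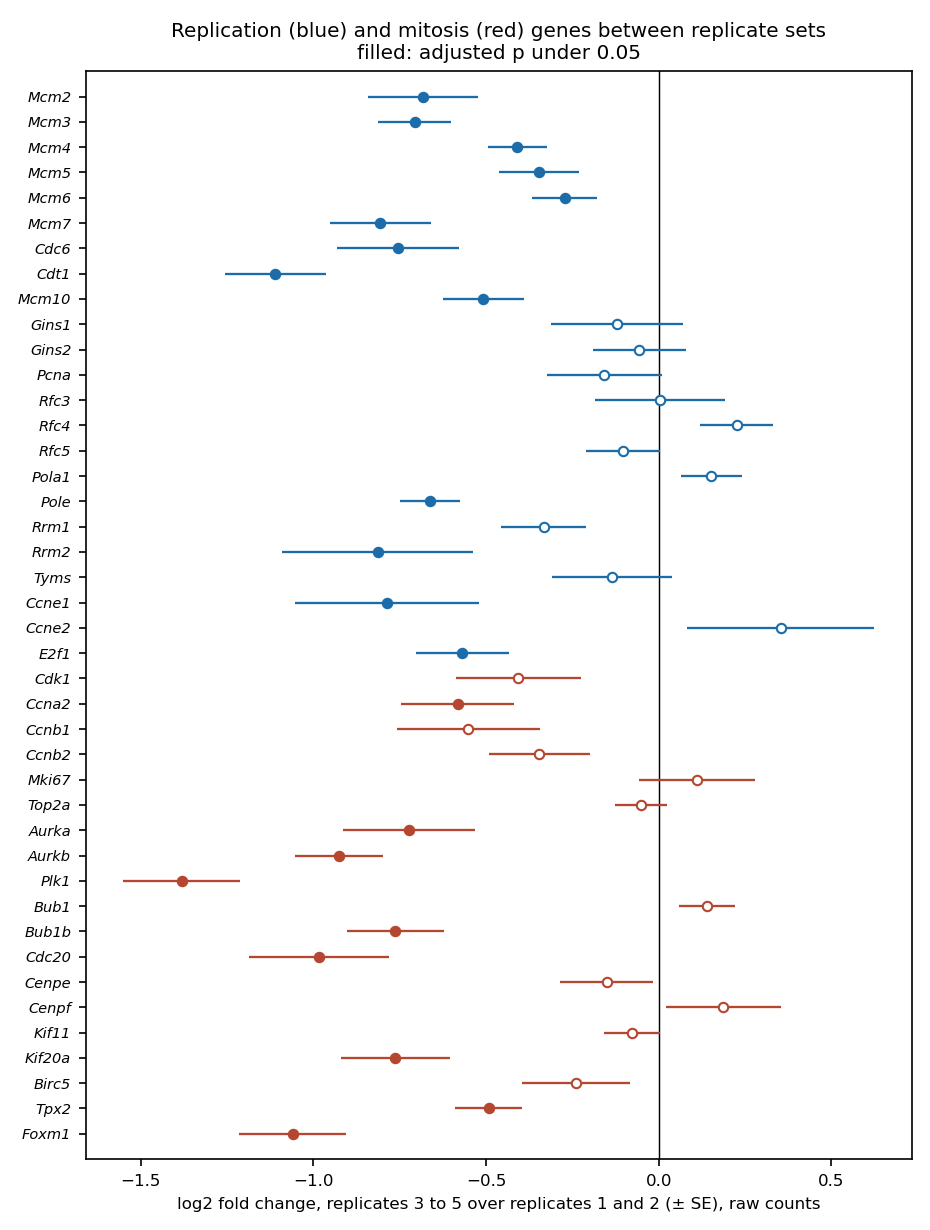
Log2 fold change of replicates 3 to 5 (5 libraries) over replicates 1 and 2 (4 libraries) in raw counts for the 42 genes, with SE from edgeR; blue marks replication, red mitosis, and filled points an adjusted p under 0.05. The 22 filled points all lie below 0, with Plk1 lowest at −1.38, and 7 open points lie above 0.

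Several other measures moved with the sets. The share of raw reads from Rpph1, the RNA of ribonuclease P, was 0.297% to 0.476% in replicates 1 and 2 and 2.83% to 3.09% in replicates 3 to 5, and that of Rmrp 0.190% to 0.272% and 1.25% to 1.38%. That of the ribosomal precursor Rn45s was 13.3% in NT 1 and 2.52% to 2.87% in the other libraries of that first set. In replicates 3 to 5 it was 1.66% to 2.25%. The part of these differences in the result was not tested, and differences of culture and of library making between the sets cannot be told apart. In the NT libraries alone, 7 of the 42 genes were lower in the second set (16.7%, beside 7.56% of all tested genes) and 0 higher, namely Plk1, Cdt1, Foxm1, Aurkb, Mcm3, Pole and E2f1. After the authors' correction 0 of 42 were called between the sets, beside 0% of all tested genes. An unadjusted p under 0.05 was found for 0 of 42, beside 0 of 11981 tested genes. The correction was made between these sets, so it fixed that outcome in advance.

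Further genes of the pathway were taken from lists chosen with earlier results of these data known. Of 46 other replication genes, among them the origin recognition complex, further polymerase subunits and E2f8, 0 rose and 0 fell with LSD1i in the batch-corrected table, with a median log2 fold change of −0.01. Asf1b, a histone chaperone, had the smallest p there (0.45 ± 0.19, adjusted p = 0.301), followed by E2f8 (−0.31 ± 0.17) and the primase subunit Prim2 (0.11 ± 0.07). Of 47 other mitosis genes 0 rose and 0 fell, with a median of 0.01. The condensin subunit Ncaph (0.23 ± 0.08, adjusted p = 0.158), the centromeric histone Cenpa (0.24 ± 0.10) and the motor Kif4 (0.14 ± 0.08) came first by p. Of 16 tested cell cycle brakes 0 were called, and Btg2 (0.28 ± 0.11, adjusted p = 0.255), Btg1 (0.35 ± 0.14) and Lin54 (0.19 ± 0.08) came first by p.

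Of 12 genes that drive entry into the cycle, 1 fell and 0 rose with LSD1i, beside the 3.31% of all tested genes called in either direction. The gene was Cdk6, a kinase that pairs with D-type cyclins to inactivate the retinoblastoma protein. Cdk6 stood at 116, 85.9, 97.8, 123 and 97.9 CPM in the NT libraries and at 70.3, 81.8, 66.2 and 72.7 in the LSD1i libraries, in order of number. All LSD1i values lay below all NT values, the nearest being LSD1i 2 and NT 2, and the log2 fold change was −0.52 ± 0.11 (adjusted p = 0.0311). Raw counts gave Cdk6 an adjusted p of 0.0608 with the batch term and 0.0418 with the replicate block, both under the batch-corrected names. Under the raw names with the batch term its log2 fold change was −0.15 ± 0.21 (adjusted p = 0.871), so the call was lost. That fit called 0 of 11916 tested genes, so the loss is not particular to Cdk6. Leaving out 1 library of the batch-corrected table ended the call in 5 of 9 cases (adjusted p up to 0.111). In replicates 3 to 5 the log2 fold change of Cdk6 was −0.63, and in replicates 1 and 2 it was −0.43 under the batch-corrected names and 0.43 under the raw names. Cdc25a, a phosphatase that activates CDKs, and Myc had log2 fold changes of −0.35 ± 0.16 and −0.23 ± 0.12 and did not pass. Between the sets of replicates, 17 of the 46 replication genes, 21 of the 47 mitosis genes and 6 of the 12 entry genes were lower in replicates 3 to 5, and 3, 3 and 0 were higher. Of the 16 cell cycle brakes 3 were lower and 4 higher, with a median log2 fold change of 0.17. These counts stand beside 20.4% of all tested genes lower and 18.4% higher.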

How the data were processed

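RNA of 9 libraries of mouse CD8+ T cells (5 NT, 4 LSD1i) was sequenced by the submitters, and groups and replicate numbers come from the sample titles. STAR, featureCounts, edgeR and the build mm9 are named in the submitters' processing notes, without versions. The authors deposited raw read counts per gene, estimated counts after a batch correction of unstated method, and a table of their own log2 fold changes with an F score and p-values (adjusted p). Rows without a gene name numbered 0. The members and all lists were chosen with earlier results of these data known, and the rule for named genes took 16 preset members, called members and the 4 of each group with the smallest p.

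Batch-corrected counts, rounded to whole numbers where needed, were tested as LSD1i over NT by edgeR 4.0.16, quasi-likelihood (R 4.3.3, TMM scaling, minimum count 10 and minimum total 15 by group, Benjamini-Hochberg over all tested genes at 0.05). SE is the log2 fold change divided by the root of the F statistic, and 95% intervals use its total degrees of freedom. The batch had already been removed from these counts, and the fit charged no degrees of freedom for that. P-values and intervals from the batch-corrected table therefore leave out the uncertainty of the correction. Libraries were matched between tables by the genes at zero in only 1 table (0 for each partner, at least 1336 otherwise). Replicate sets were read from corrected-to-raw ratios (log2) over 9618 genes with a mean of at least 100 raw counts, whose deviations correlated at 0.755 to 0.980 within sets and −0.962 to −0.790 between them. Alternatives were raw counts under either naming, batch term, block, scaling, filter, DESeq2 1.42.0 and leaving out each library. The fit was tested on simulated data. Promoter sequences are from RefSeq, 1 per gene. Mean log2 CPM used a prior count of 0.5.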

Additional observations from a re-analysis of the deposited data

Results flagged for a closer look

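Among the 84 sets of member values (42 genes, 2 groups) of the batch-corrected table, 5 held a library far from the others of its group by Dixon's criterion, where chance flags about 1 in 20. Mki67 was at 854 CPM in NT 1, against 533 to 609.7 in the other NT libraries, and at 787 CPM in LSD1i 4, against 526 to 561 in the other LSD1i libraries. Cenpe, the kinetochore motor, stood high in the same LSD1i 4 at 166 CPM, against 125 to 129 in the others. E2f1 was low in LSD1i 2 at 18.7 CPM, against 23.4 to 23.7. Aurkb was low in LSD1i 3 at 119.5 CPM, against 132 to 135. The raw reads of NT 1 held 13.3% of Rn45s, and its part in the Mki67 value was not tested.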

How the results depend on the processing

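Calls among the 42 genes were 0 in the main fit and under each of the 22 alternatives, with the lowest adjusted p at 0.213 (Rfc3, replicates 3 to 5 alone). Medians of both gene groups moved by less than the SD between libraries in each alternative. The count of members with an interval within 1.5-fold, 38, became 20 with raw counts as named, 25 with raw counts carrying the batch-corrected names and no batch term, and 18 in replicates 1 and 2 alone under either naming, which have fewer libraries. Over all tested genes, 8429 of 11981 became 5714 and 5878 of 11916 and 3818 of 11837, in the same order. Replication minus mitosis, LSD1i minus NT, went from −0.08 to 0.079 in replicates 1 and 2 alone under the batch-corrected names. Over all genes, 397 calls became 0 with raw counts as named with or without the batch term, 220 with the batch-corrected names and batch term, 84 without that term, 8 in replicates 1 and 2 under either naming, 117 in replicates 3 to 5 and 649 in DESeq2, and ranged from 219 to 432 when 1 library was left out (219 without LSD1i 4, 228 without LSD1i 1, 251 without LSD1i 3). The causes were not tested.

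With the replicate block, calls numbered 326 in the batch-corrected table and 352 in raw counts carrying its names, with 0 members in either. Same-numbered libraries of the corrected table correlated at −0.29 to 0.19 in their deviations from group means, with 1 of 4 LSD1i libraries (number 2) closest to the NT library of its own number. In raw counts without the batch term every pair was above 0.1 (0.44 to 0.68), with 2 of 4 closest to their own number, so the blocked percentages stand in the report. The labels do not say what a number marks, and in raw counts it goes with the replicate sets.

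Members lower in replicates 3 to 5, 22, numbered 7 in NT alone (fewer libraries) and 16 to 26 when 1 library was left out. The 16, without NT 2, stood beside 1908 of 11880 tested genes, and the 26, without NT 1, beside 2767 of 11804. Members lower numbered 0 in the batch-corrected table, from which the difference between the sets had been removed. These alternatives, and replicates 1 and 2 under the raw names, were chosen after seeing the data. At the depth here each member had at least 285 raw reads per library.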
